A study of Mus musculus with 9 samples.

Results

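A set of 10 genes of pericellular proteolysis was followed in neutrophils sorted from the lung, the peripheral blood and the bone marrow of wild-type C57BL/6 mice. The genes were chosen by symbol: the matrix metalloproteinases Mmp8, Mmp9, Mmp14, Mmp19 and Mmp25, the ADAM proteinases Adam8, Adam10, Adam17 and Adam19, and the inhibitor Timp2. They are 10 of the 24532 genes in the count table, and all 10 were found and passed the filter on low counts that left 13510 genes for testing. Each tissue was represented by 3 libraries called biological replicates in the labels, which makes 9 libraries. Strain and wild-type genotype were common to all of them, and the sources used here name no treatment, age, sex, sort gate or sort marker, nor whether each replicate was 1 animal or a pool. P-values of fits to all 9 libraries weigh a difference between tissues against the spread between libraries, estimated over the 3 tissues together.

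Matrix metalloproteinases are zinc-dependent proteinases that are made as inactive precursors and cut collagens, gelatin and other matrix proteins, and TIMP proteins bind and block their active site. ADAM proteinases sit in the membrane and release the outer part of other surface proteins, which is called shedding. Neutrophils store collagenase and gelatinase in granules that are filled while the cells mature in the bone marrow, and release them as they leave the vessels and enter tissue.

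Each library held 42045548 to 56796219 counts, so that a count of 3, taken as the detection floor, was worth 0.0528 to 0.0714 CPM (counts normalised to library size). Every member lay above that floor in every library, the lowest count being 26 for Mmp14 in blood replicate 2. Levels of 1 gene are compared between tissues in CPM scaled by trimmed means of log ratios (TMM). Levels of different genes are compared only in FPKM (read fragments per length and library size), which divide by transcript length. The 15 neutrophil markers summed to 20192 to 36676 CPM in lung, 27750 to 39028 CPM in blood and 96547 to 138648 CPM in bone marrow. None of them was at 0 in all 3 libraries of a tissue, but Elane had 0.018, 0 and 0 CPM in lung, below the detection floor. Ly6g, the surface marker of mouse neutrophils, averaged 19.9 CPM in lung, 23.0 CPM in blood and 528 CPM in bone marrow, while Csf3r, the receptor for granulocyte colony-stimulating factor, averaged 7758 CPM in lung, 12949 CPM in blood and 4794 CPM in bone marrow. These genes, and Col3a1, Marco and Adgre1 further on, were picked from the marker lists after their values were seen.

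Expression differed among the 3 tissues for 9 of the 10 genes, the exception being Adam17, by edgeR's quasi-likelihood F test with Benjamini-Hochberg adjustment over all tested genes (46.1% of all genes tested passed it). In blood against bone marrow 6 members were lower (Mmp8, Mmp9, Mmp25, Adam8, Adam19 and Timp2) and 0 were higher, where 13.1% of all tested genes were lower and 8.34% higher. In lung against blood 3 were higher (Mmp14, Mmp19 and Adam8) and 2 lower (Adam10 and Adam19), where 13.2% of all tested genes were higher and 15.7% lower. In lung against bone marrow 2 were higher (Mmp14 and Mmp19) and 6 lower (Mmp8, Mmp9, Mmp25, Adam10, Adam19 and Timp2), where 15.6% of all tested genes were higher and 22.6% lower. The median log2 fold change over the 10 members was -1.26 in blood against bone marrow, -0.31 in lung against blood and -1.49 in lung against bone marrow, against -0.05, 0.05 and 0.06 over all tested genes. The comparisons share libraries (each tissue stands in 2 of them), so they are not independent of each other. In sorted bulk RNA, fewer cells of a type and less RNA per cell cannot be told apart.

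**Figure D1:**
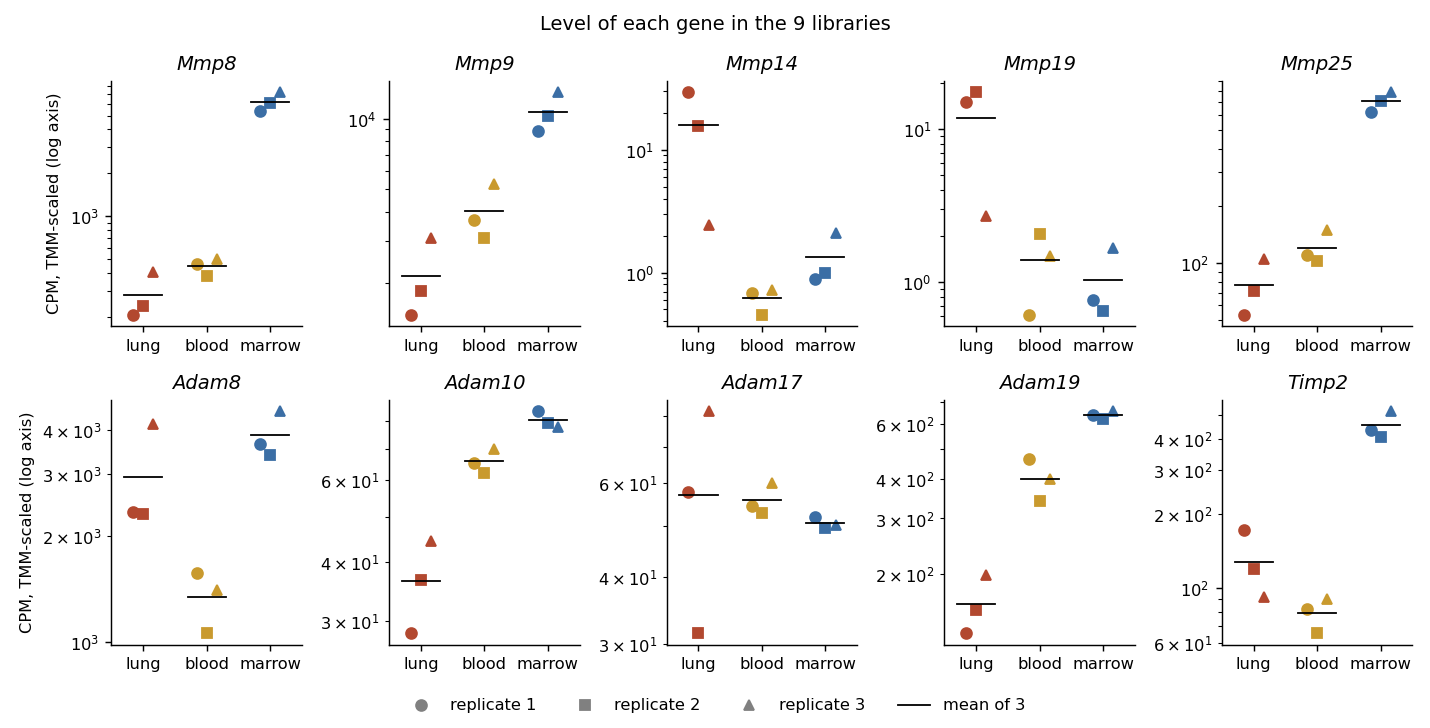
Level of each of the 10 genes in every library (TMM-scaled CPM, log axis), with lung, blood and bone marrow from left to right, a symbol for each replicate and a line at the mean of 3. Mmp8, Mmp9, Mmp25 and Timp2 are highest in all 3 bone marrow libraries, Mmp14 and Mmp19 in all 3 lung libraries.

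**Figure D2:**
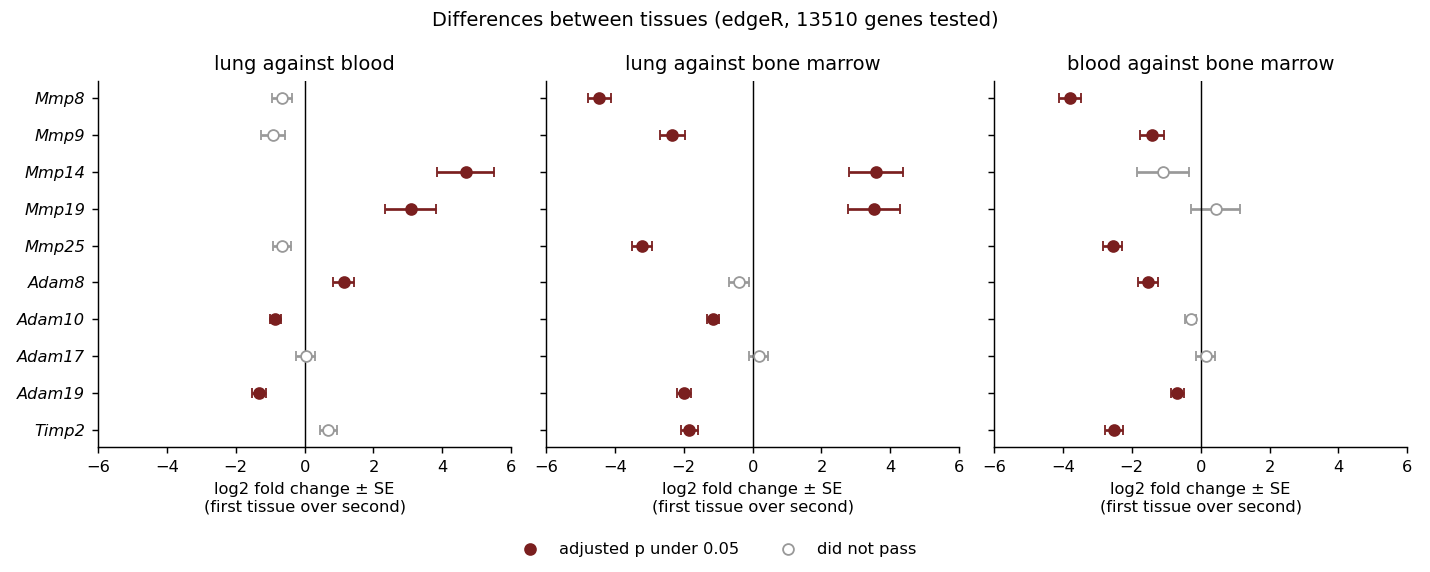
Log2 fold change with its standard error for each gene in lung against blood, lung against bone marrow and blood against bone marrow, from left to right. Filled points passed the adjusted p threshold of 0.05: 5 genes in the left panel, 8 in the middle and 6 on the right.

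Mmp8, the neutrophil collagenase, was the member with the steepest fall. Its gene lies on chr9:7558429-7568486 of mm10. It had 206, 239 and 410 CPM in the lung libraries, against 468, 385 and 501 CPM in blood and 5378, 6105 and 7264 CPM in bone marrow. Lung and blood overlapped, with lung replicate 3 above blood replicate 2, and every bone marrow library was more than 10 times above every other library. Blood was 13.8-fold lower than bone marrow (log2 fold change -3.79 ± 0.33 SE, edgeR adjusted p = 0.000112), and lung 21.9-fold lower than bone marrow (log2 fold change -4.45 ± 0.34, adjusted p = 3.32e-05). Lung against blood did not pass (log2 fold change -0.66 ± 0.29, edgeR adjusted p = 0.124).

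Mmp9, gelatinase B of the gelatinase granules, lies on chr2:164948219-164955850. It had 1458, 1837 and 3106 CPM in lung, against 3689, 3096 and 5293 CPM in blood and 8882, 10283 and 12971 CPM in bone marrow. The bone marrow libraries were all highest, and lung replicate 3 lay marginally above blood replicate 2. Lung was 5.02-fold lower than bone marrow (log2 fold change -2.33 ± 0.36, edgeR adjusted p = 0.00121), and blood 2.66-fold lower than bone marrow (log2 fold change -1.41 ± 0.35, adjusted p = 0.0212). The call in blood against bone marrow was lost by edgeR without blood replicate 1 (adjusted p = 0.167), 2 (0.193) or 3 (0.0674) and without bone marrow replicate 2 (0.0675) or 3 (0.0883). Mmp25, a membrane-anchored metalloproteinase of leukocytes known as leukolysin (chr17:23629176-23645269), followed the same order. It had 53.5, 71.4 and 105 CPM in lung, against 110, 103 and 149 CPM in blood and 623, 710 and 791 CPM in bone marrow. Lung replicate 3 again reached into the range of blood, and the bone marrow libraries stood apart from both. Blood was 5.87-fold lower than bone marrow (log2 fold change -2.55 ± 0.28, edgeR adjusted p = 0.000359), and lung 9.24-fold lower than bone marrow (log2 fold change -3.21 ± 0.28, adjusted p = 6.67e-05).

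In lung against blood neither Mmp9 (log2 fold change -0.92 ± 0.35, edgeR adjusted p = 0.0800) nor Mmp25 (-0.65 ± 0.26, adjusted p = 0.0950) passed. Lung replicate 3 was the highest lung library for Mmp8, Mmp9 and Mmp25. Without it, edgeR called all of them lower in lung than in blood, Mmp8 at a log2 fold change of -1.05 (adjusted p = 0.00843), Mmp9 at -1.32 (0.0118) and Mmp25 at -0.98 (0.0117). That library had a TMM factor of 0.791, against 1.19 and 1.14 in the other lung libraries, and its part in the result was not tested. On the authors' FPKM scale, which carries no TMM factor, lung lay below blood without overlap for all of them. The highest lung library and the lowest blood library had 128 and 189 FPKM for Mmp8, 746 and 1177 FPKM for Mmp9, and 21.9 and 31.4 FPKM for Mmp25. Lung was also below blood in TMM-scaled CPM within each replicate number, for each of these genes. With the replicate number as a block, edgeR called them lower in lung than in blood, Mmp8 at a log2 fold change of -0.72 (adjusted p = 0.0293), Mmp9 at -0.95 (0.00844) and Mmp25 at -0.68 (0.0152). Each gene gained the call in 1 of 9 fits that left out 1 library and in 3 of 11 other alternatives. With DESeq2 size factors the edgeR adjusted p was 0.312 for Mmp8, 0.194 for Mmp9 and 0.266 for Mmp25. Limma on log2(FPKM + 1) called 2919 of all tested genes lower in lung against blood and 1390 higher. The main fit called 2120 lower and 1780 higher.

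Timp2, the inhibitor of metalloproteinases that also takes part in the activation of Mmp2 by Mmp14, lies on chr11:118301061-118355411. It had 171, 119 and 91.9 CPM in lung, against 81.9, 65.6 and 90.4 CPM in blood and 435, 408 and 522 CPM in bone marrow. On this scale all lung libraries lay above all blood libraries, lung replicate 3 by a narrow margin, and bone marrow stood far above both. In FPKM lung and blood overlapped, since lung replicate 3 had 19.4 FPKM and the blood libraries 21.8 to 25.2 FPKM. Blood was 5.74-fold lower than bone marrow (log2 fold change -2.52 ± 0.26, edgeR adjusted p = 0.000247), and lung 3.57-fold lower than bone marrow (log2 fold change -1.83 ± 0.25, adjusted p = 0.000571). Lung against blood did not pass (log2 fold change 0.69 ± 0.24, edgeR adjusted p = 0.0631), and passed without lung replicate 3 (log2 fold change 0.84, adjusted p = 0.0156).

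Mmp8, Mmp25 and Timp2 had the largest falls in blood against bone marrow, and the 250 bases before each annotated start are shown so that their promoters can be compared. They are RefSeq sequences of GRCm38.p6 on the gene's own strand: Mmp8 at chr9:7558179-7558428 on the plus strand, Mmp25 at chr17:23645270-23645519 and Timp2 at chr11:118355412-118355661 on the minus strand. RefSeq promoters were matched for 8 of the 10 members; Mmp9 and Mmp19 are named only. Capitals mark matches on either strand to a C/EBP motif (TTNNGNAA), a PU.1 motif (GAGGAA), an AP-1 motif (TGANTCA) or a GC box (GGGCGG).
Mmp8: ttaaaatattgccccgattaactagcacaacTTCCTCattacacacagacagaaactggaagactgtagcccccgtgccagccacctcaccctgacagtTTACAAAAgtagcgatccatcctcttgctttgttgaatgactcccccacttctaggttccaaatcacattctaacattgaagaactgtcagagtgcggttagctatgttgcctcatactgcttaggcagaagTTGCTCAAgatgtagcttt
Mmp25: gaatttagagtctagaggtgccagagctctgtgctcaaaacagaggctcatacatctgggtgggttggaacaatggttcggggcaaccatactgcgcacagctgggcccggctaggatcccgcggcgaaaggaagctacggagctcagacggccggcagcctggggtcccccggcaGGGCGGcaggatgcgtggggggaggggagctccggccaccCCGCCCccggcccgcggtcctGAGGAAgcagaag
Timp2: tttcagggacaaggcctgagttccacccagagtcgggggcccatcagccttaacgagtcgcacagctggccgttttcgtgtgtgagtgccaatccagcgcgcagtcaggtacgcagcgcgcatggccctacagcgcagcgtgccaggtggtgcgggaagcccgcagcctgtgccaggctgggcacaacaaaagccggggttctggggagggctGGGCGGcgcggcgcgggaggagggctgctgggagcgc

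The Mmp8 window held 2 matches to the C/EBP letters and 1 to the PU.1 letters, the Mmp25 window 1 to PU.1 and 2 to the GC box, and the Timp2 window 1 to the GC box. No matches overlapped in these windows, and none was to the AP-1 letters. GC content was 44.8% for Mmp8, 66% for Mmp25 and 68% for Timp2. Of 32851 mouse promoter windows of the same length, 36.8% held the C/EBP letters, 23.3% the PU.1 letters, 6.75% the AP-1 letters and 32.7% the GC box. The matches are a description of letters only.

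Mmp14 and Mmp19 were higher in lung than in either other tissue and stood near 1 CPM in blood and bone marrow. Mmp14, a transmembrane metalloproteinase that activates pro-Mmp2 and cuts collagen (chr14:54431598-54442456), had 29.4, 15.5 and 2.43 CPM in lung, against 0.676, 0.452 and 0.725 CPM in blood and 0.882, 1.00 and 2.097 CPM in bone marrow. The raw counts behind these were 1621, 776 and 98 in lung, against 31, 26 and 32 in blood and 37, 51 and 82 in bone marrow. No lung library overlapped the others, though lung replicate 3 lay just above bone marrow replicate 3. Lung was 25.5-fold higher than blood (log2 fold change 4.67 ± 0.83, edgeR adjusted p = 0.00408) and 11.9-fold higher than bone marrow (log2 fold change 3.57 ± 0.79, adjusted p = 0.00741). Without lung replicate 1 the log2 fold change was 3.86 in lung against blood (edgeR adjusted p = 0.0119) and 2.76 in lung against bone marrow (0.0258).

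Mmp19, a secreted metalloproteinase of basement membrane components (chr10:128790910-128800827), had 15.0, 17.4 and 2.71 CPM in lung, against 0.610, 2.07 and 1.47 CPM in blood and 0.763, 0.647 and 1.66 CPM in bone marrow. On this scale all lung libraries were above all others, with replicate 3 again the lowest. In FPKM lung replicate 3 (0.601 FPKM) lay below blood replicate 2 (0.732 FPKM). Lung was 8.44-fold higher than blood (log2 fold change 3.08 ± 0.74, edgeR adjusted p = 0.0145) and 11.5-fold higher than bone marrow (log2 fold change 3.52 ± 0.76, adjusted p = 0.00675). By limma-voom with Benjamini-Hochberg adjustment neither gene passed, Mmp14 having adjusted p of 0.137 against blood and 0.130 against bone marrow, and Mmp19 of 0.0934 against blood and 0.0757 against bone marrow. In blood against bone marrow, edgeR called neither Mmp14 (log2 fold change -1.10 ± 0.75, adjusted p = 0.344) nor Mmp19 (0.44 ± 0.71, adjusted p = 0.713).

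As for Mmp14 and Mmp19, several marker sums of other cells, though not all, were lowest among the lung libraries in replicate 3. Besides the sums below, this held for B cell (434, 375 and 41.3 CPM), dendritic cell (935, 680 and 250 CPM) and T and NK cell markers (89.3, 101 and 19.1 CPM). It also held for erythroid (165, 135 and 32.7 CPM) and myeloid progenitor markers (117, 100 and 39.5 CPM). The 13 fibroblast and smooth muscle markers summed to 2058, 1662 and 199.9 CPM in lung, against 185, 221 and 113 CPM in blood and 227, 187 and 319 CPM in bone marrow; 11 of them were highest in lung and Eln was at 0 in blood. The 13 macrophage markers summed to 1456, 1761 and 948 CPM in lung, against 566, 569.6 and 622 CPM in blood and 1122, 995 and 1334 CPM in bone marrow. Of these markers 11 were highest in lung, and none was at 0 in all 3 libraries of a tissue. Lung replicate 3 was the lowest lung library for Mmp14, Mmp19, Timp2 and both marker sums, and its fibroblast sum lay within the range of the blood and bone marrow libraries. The 11 alveolar and airway epithelium markers summed to 909, 283 and 78.5 CPM in lung and to at most 37.4 CPM in blood and 93.8 CPM in bone marrow, and the 9 endothelial markers to 108, 75.8 and 28.7 CPM in lung, at most 42.03 CPM in blood and 21.3 CPM in bone marrow. In lung replicate 3, where Mmp14 was at 2.43 CPM, the collagen gene Col3a1 was at 27.2 CPM and the macrophage receptor gene Marco at 0.745 CPM, whereas lung replicate 1 had 449 CPM of Col3a1 and 31.8 CPM of Marco. The macrophage marker Adgre1 went the other way, at 54.5, 78.6 and 126 CPM in lung, and averaged 101 CPM in blood. The 9 monocyte markers were also highest in lung replicate 3, summing to 2461, 3168 and 3650 CPM in lung. So were the platelet and megakaryocyte markers (48.9, 43.8 and 55.5 CPM) and the eosinophil, basophil and mast cell markers (36.9, 47.2 and 49.3 CPM). The part of these cells in the Mmp14, Mmp19 and Timp2 values was not tested.

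**Figure D3:**
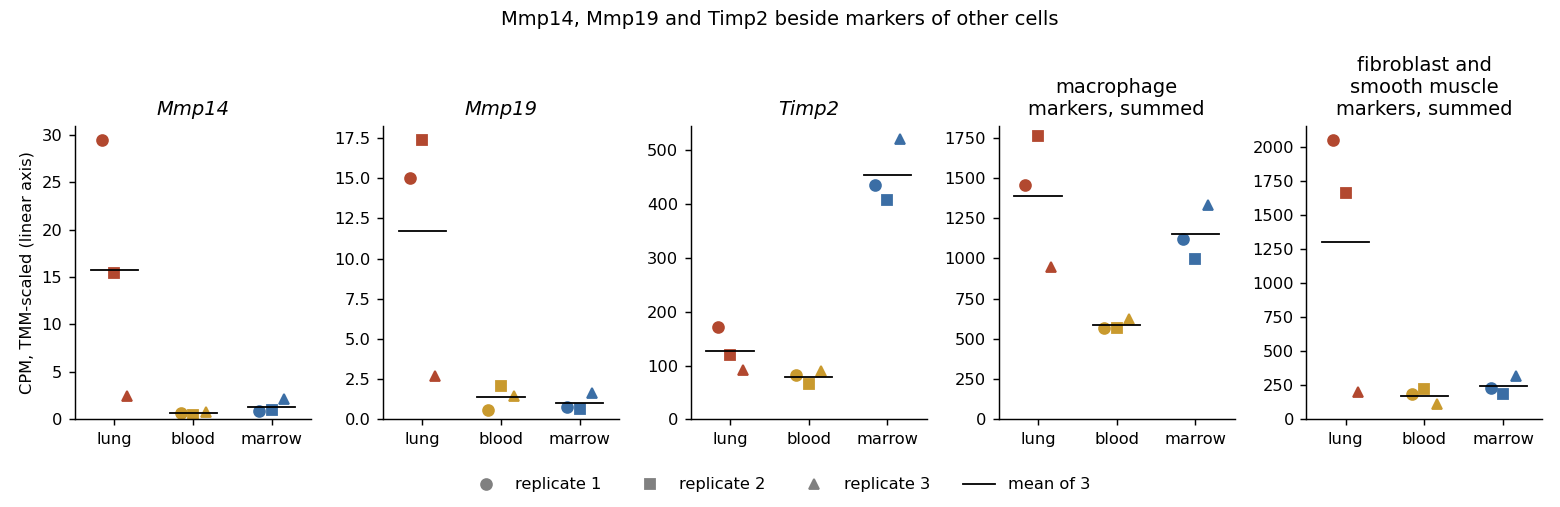
Mmp14, Mmp19 and Timp2 (TMM-scaled CPM, linear axis) beside the summed CPM of 13 macrophage and 13 fibroblast and smooth muscle markers, with a symbol for each replicate of lung, blood and bone marrow and a line at the mean of 3. Lung replicate 3 (triangle) is the lowest lung library in all 5 panels.

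Adam8, an ADAM proteinase of leukocyte granules and surfaces (chr7:139978932-139992562), was lowest in blood. It had 2348, 2315 and 4168 CPM in lung, against 1568, 1056 and 1401 CPM in blood and 3661, 3404 and 4553 CPM in bone marrow. Each lung library exceeded each blood library, while lung replicate 3 lay within the range of bone marrow and the other lung libraries below it. Lung was 2.19-fold higher than blood (log2 fold change 1.13 ± 0.30, edgeR adjusted p = 0.0206), and blood 2.89-fold lower than bone marrow (log2 fold change -1.53 ± 0.30, adjusted p = 0.00771). Leaving out a blood library ended both calls by edgeR. Without blood replicate 1, 2 or 3 the adjusted p was 0.0821, 0.134 or 0.103 in lung against blood and 0.0627, 0.105 or 0.0682 in blood against bone marrow. Lung against bone marrow did not pass (log2 fold change -0.40 ± 0.30, edgeR adjusted p = 0.318), and passed without lung replicate 3 (log2 fold change -0.77, adjusted p = 0.0280).

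Adam19, a proteinase known to cut neuregulin (chr11:46054502-46147347), was lowest in lung and highest in bone marrow. It had 130, 154 and 198 CPM in lung, against 462, 340 and 400 CPM in blood and 638, 621 and 659 CPM in bone marrow. The 3 tissues did not overlap. Lung was 2.496-fold lower than blood (log2 fold change -1.32 ± 0.20, edgeR adjusted p = 0.00215) and 3.98-fold lower than bone marrow (log2 fold change -1.99 ± 0.21, adjusted p = 0.000141). Blood against bone marrow passed narrowly (log2 fold change -0.67 ± 0.20, edgeR adjusted p = 0.0417), and 7 of the 9 fits that left out 1 library lost that call. Its adjusted p by edgeR was then 0.0687 without lung replicate 2, 0.212, 0.394 and 0.252 without blood replicate 1, 2 and 3, and 0.108, 0.117 and 0.135 without bone marrow replicate 1, 2 and 3.

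Adam10, a sheddase of Notch and many other surface proteins (chr9:70678982-70780229), had 28.2, 36.6 and 44.4 CPM in lung, against 65.2, 62.1 and 69.9 CPM in blood and 84.3, 79.3 and 77.7 CPM in bone marrow. On this scale the 3 tissues did not overlap for Adam10 either, with lung lowest. In FPKM blood (14.8 to 16.3) and bone marrow (12.7 to 16.6) overlapped, and the blood mean was the higher of them. Lung was 1.81-fold lower than blood (log2 fold change -0.85 ± 0.16, edgeR adjusted p = 0.00570) and 2.21-fold lower than bone marrow (log2 fold change -1.15 ± 0.17, adjusted p = 0.000807). The call against blood was lost by edgeR without blood replicate 1 (adjusted p = 0.0573) or 3 (0.0843), and blood against bone marrow did not pass (log2 fold change -0.29 ± 0.16, adjusted p = 0.246).

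Adam17, the sheddase of tumour necrosis factor and L-selectin (chr12:21323509-21373632), had 57.8, 31.4 and 82.0 CPM in lung, against 54.5, 52.8 and 59.9 CPM in blood and 51.8, 49.5 and 50.1 CPM in bone marrow. The lung libraries spanned the range of the others. Blood lay above bone marrow without overlap, at 52.8 to 59.9 against 49.5 to 51.8 CPM and 12.8 to 14.3 against 8.56 to 10.5 FPKM. In the 9-library fit, which estimates spread over all 3 tissues together, edgeR called no difference. The log2 fold change was 0.03 ± 0.28 in lung against blood (adjusted p = 0.943), 0.18 ± 0.28 in lung against bone marrow (0.645) and 0.14 ± 0.28 in blood against bone marrow (0.768). With the 6 libraries of blood and bone marrow alone, edgeR called Adam17 higher in blood (log2 fold change 0.30, adjusted p = 0.0434). That fit called 2164 genes higher in blood, against 1127 in the 9-library fit. Lung replicate 2 had 1577 Adam17 counts in the table used here, which is 0.997 times its RSEM expected count, whereas this ratio was 1.84 to 1.91 in the other 5 lung and blood libraries. In TPM, the length-normalised unit of RSEM, Adam17 stood at 30.04, 31.8 and 33.0 in lung, against 30.3, 33.4 and 31.6 in blood, and the ranges overlapped. The fit of RSEM counts put lung 0.30 above blood on the log2 scale (edgeR adjusted p = 0.221).

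For the other members the RSEM counts of lung and blood gave the same calls as the table. The ratio of the table's count to the RSEM count was 2.01 to 2.06 for Mmp8, Mmp9 and Timp2 and 1.70 to 1.82 for Mmp25, with little spread between lung and blood. It varied more for Mmp14, at 3.04, 2.75 and 2.33 in lung and 2.21, 2.36 and 2.46 in blood, and for Mmp19, at 1.33 to 2.32. With RSEM counts edgeR gave log2 fold changes in lung against blood of 4.45 for Mmp14 (adjusted p = 0.0127) and 2.90 for Mmp19 (adjusted p = 0.0329).

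**Figure D4:**
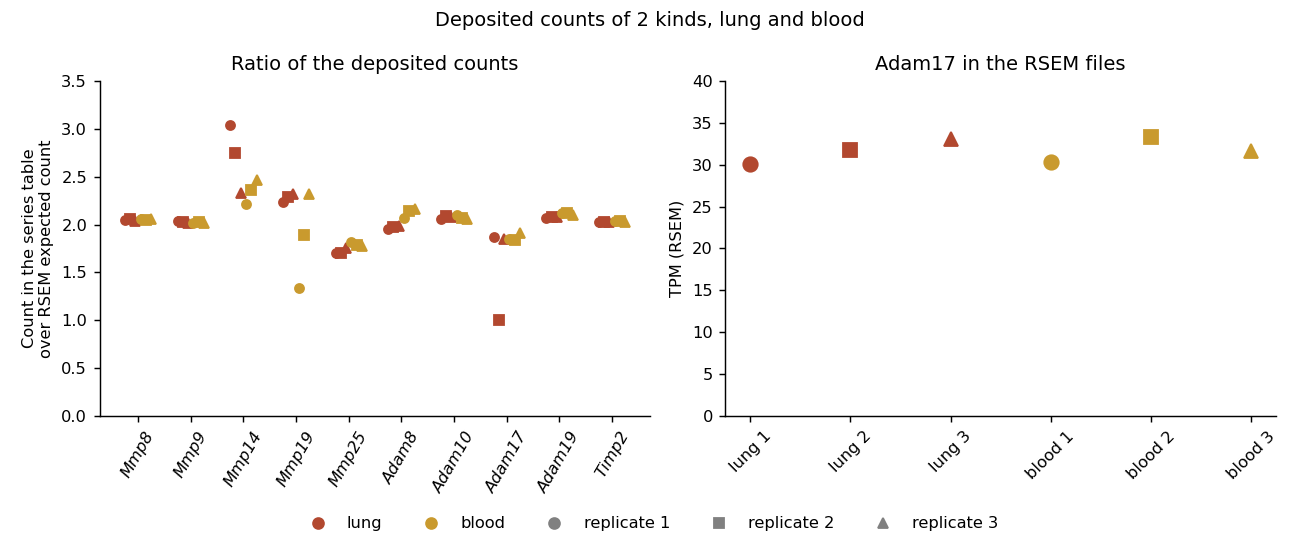
Left, the count in the series table over the RSEM expected count for each of the 10 genes in the 3 lung and 3 blood libraries. Right, Adam17 in TPM from RSEM in those libraries. Lung replicate 2 falls to 0.997 for Adam17 on the left and lies among the others at 31.8 TPM on the right.

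On the per-length scale the order of the genes differed between tissues. In lung Adam8 led with 903 ± 105 FPKM (SD, n = 3 here and below), ahead of Mmp9 with 638 ± 109 and Mmp8 with 111 ± 15.7. In blood Mmp9 led with 1359 ± 283 FPKM, ahead of Adam8 with 463 ± 59.1 and Mmp8 with 198 ± 8.58. In bone marrow Mmp9 had 2821 ± 273 FPKM, Mmp8 2136 ± 128 and Adam8 1043 ± 77.5. The first 3 did not overlap with each other in any tissue. Behind them in lung came Timp2 (36.7 ± 17.5 FPKM), Adam19 (24.5 ± 1.82), Mmp25 (20.1 ± 2.82), Adam17 (12.3 ± 3.96), Adam10 (7.71 ± 0.928), Mmp14 (4.62 ± 4.21) and Mmp19 (3.77 ± 2.76). Of these neighbours in lung, Timp2 and Adam19, Adam17 and Adam10, Adam10 and Mmp14, and Mmp14 and Mmp19 overlapped. In blood the order went on with Adam19 (67.7 ± 6.95 FPKM), Mmp25 (35.5 ± 5.13), Timp2 (23.6 ± 1.68), Adam10 (15.5 ± 0.741), Adam17 (13.6 ± 0.742), Mmp19 (0.451 ± 0.273) and Mmp14 (0.173 ± 0.0262). In bone marrow it went on with Mmp25 (163 ± 7.54 FPKM), Timp2 (106 ± 6.05), Adam19 (84.5 ± 6.37), Adam10 (14.8 ± 1.96), Adam17 (9.60 ± 1.00), Mmp14 (0.284 ± 0.114) and Mmp19 (0.243 ± 0.106). Only Mmp14 and Mmp19 overlapped as neighbours in those tissues.

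The make-up of the set differed between tissues along with its total. The 10 genes summed to 1621, 1678 and 1982 FPKM in lung, against 2099.8, 1927 and 2504 FPKM in blood and 5986, 6346 and 6803 FPKM in bone marrow. Adam8 made up 53.4, 48.9 and 51.5% of that sum in lung, against 25.1, 21.2 and 18.1% in blood and 17.8, 15.1 and 16.2% in bone marrow. Mmp8 made up 5.96, 6.41 and 6.44% in lung, against 9.51, 9.83 and 8.24% in blood and 33.3, 34.3 and 32.9% in bone marrow. Neither gene's share overlapped between lung and the other tissues. Mmp9 made up 32.6, 38.1 and 37.6% in lung, against 57.9, 61.1 and 67.3% in blood and 42.5, 44.7 and 45.4% in bone marrow, and was thus largest in blood.

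**Figure D5:**
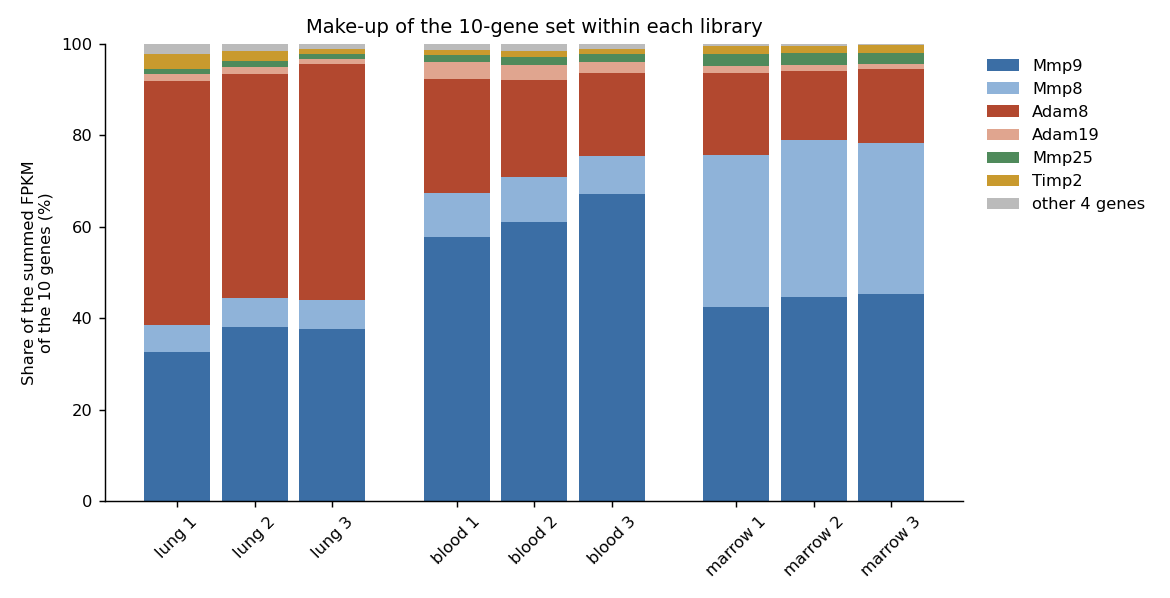
Share of the summed FPKM of the 10 genes (%) in the 3 lung, 3 blood and 3 bone marrow libraries, from left to right. Mmp9, Mmp8, Adam8, Adam19, Mmp25 and Timp2 are drawn singly, and Mmp14, Mmp19, Adam10 and Adam17 together. Adam8 takes 48.9 to 53.4% in lung, Mmp9 57.9 to 67.3% in blood, and Mmp8 32.9 to 34.3% in bone marrow.

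Ratios within a library do not depend on how libraries are scaled. Mmp9 over Mmp8 in FPKM was 5.46, 5.94 and 5.85 in lung, against 6.08, 6.22 and 8.16 in blood and 1.28, 1.30 and 1.38 in bone marrow. Mmp8 over Mmp25 was 5.73, 4.99 and 5.82 in lung, against 6.36, 5.58 and 4.999 in blood and 12.9, 12.8 and 13.7 in bone marrow. For both ratios bone marrow stood apart from the other tissues, whose ranges overlapped for Mmp8 over Mmp25. Mmp9 over its inhibitor Timp2 was 9.70, 17.6 and 38.5 in lung, against 51.4, 53.9 and 66.8 in blood and 23.3, 28.8 and 28.4 in bone marrow. Blood had the highest ratio in every library, and lung replicate 3 alone of the lung libraries lay above bone marrow. Adam8 over Mmp9 was 1.64, 1.28 and 1.37 in lung, against 0.433, 0.348 and 0.270 in blood and 0.420, 0.337 and 0.358 in bone marrow. Here blood and bone marrow overlapped and lung lay above both. With 3 libraries a group, an exact permutation test of 1 ratio cannot go below 0.10, so no test is given.

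Mmp8, Mmp9, Mmp14, Adam10 and Timp2 had 1 transcript each in the table. Adam8 had a 3114-base and a 3117-base transcript, and the 3114-base form took 63.0, 63.4 and 63.7% of its counts in lung, against 56.0, 54.8 and 61.8% in blood and 52.2, 60.5 and 63.2% in bone marrow. The shares of the 3 tissues overlapped. The 6405-base transcript of Adam19 took 7.18, 4.01 and 12.4% in lung, against 6.32, 11.8 and 49.4% in blood and 12.8, 6.26 and 5.39% in bone marrow, with blood replicate 3 alone above 12.8%. The 4451-base transcript of Adam17 took 42.9, 39.3 and 82.2% in lung, against 79.8, 72.6 and 79.7% in blood and 63.6, 68.1 and 79.9% in bone marrow, so lung replicates 1 and 2 lay below all other libraries. Splits between transcripts that differ by few bases depend on the authors' assignment of reads.

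For each member the 2 genes with the most similar profile were named by Pearson's r of log2(CPM + 1) over the 9 libraries, among genes with a mean of at least 20 CPM. These points share 3 tissues and are no independent series, so r is a description. Mmp8 was most like Tfdp1 and Cd177 (0.999 each), Cd177 being a surface protein of neutrophils. Mmp9 was most like Alox5 (0.997), the enzyme that begins leukotriene synthesis, and G6pdx (0.996), which feeds the pentose phosphate pathway. Mmp25 was most like Rnf10 and Zfp516 (0.999 each), Adam19 like Zyg11b (0.997) and Map3k9 (0.995), and Adam10 like Cpne3 and Strn (0.995 each). Mmp14 was most like Fbn1 (0.983), the gene for the microfibril protein fibrillin, and Tnxb (0.982), the gene of a matrix tenascin. Mmp19 was most like Sh3tc1 (0.949) and Eln (0.945), the elastin gene. Adam8 was most like Nt5c2 (0.993) and Cpne2 (0.989), Timp2 like Olfml2b (0.992) and Lyz1 (0.984), and Adam17 like Fnip1 (0.926) and Rps27 (0.869). Among the members themselves, Mmp8 and Mmp25 had an r of 0.995, Adam10 and Adam19 of 0.978, Mmp9 and Mmp25 of 0.968, and Mmp19 and Adam10 of -0.914.

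The inhibitors and proteinases around these genes were read from lists. Of 8 other metalloproteinase inhibitors, 4 were tested, and 3 were higher and 1 lower in lung against bone marrow by edgeR's quasi-likelihood test (0 to 3 higher when 1 library was left out, and 0 without lung replicate 1 or bone marrow replicate 1 or 2). Their median log2 fold change was 3.38 there, against 0.06 over all tested genes, of which 15.6% were higher and 22.6% lower. Reck, a membrane-anchored inhibitor of metalloproteinases, was the lower one in lung against bone marrow and in blood against bone marrow: it averaged 5.12 ± 3.08 CPM in lung, 6.05 ± 0.551 CPM in blood and 44.0 ± 4.05 CPM in bone marrow. Its log2 fold change was -3.10 ± 0.44 in lung against bone marrow (edgeR adjusted p = 0.000702) and -2.86 ± 0.43 in blood against bone marrow (adjusted p = 0.00212). Bone marrow was highest for Reck, as for Timp2. The Reck values of lung (7.94, 5.58 and 1.84 CPM) and blood (5.47, 6.12 and 6.57 CPM) overlapped. Timp2 did not pass in lung against blood either. Timp3, the inhibitor that binds the matrix, had 111, 51.8 and 5.86 CPM in lung and averaged 0.193 CPM in blood, with a log2 fold change of 8.24 ± 1.68 (edgeR adjusted p = 0.00764). Lung replicate 3 was again the lowest.

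Of 18 other matrix metalloproteinases 10 were tested, 4 higher and 0 lower in lung against blood and 0 higher and 2 lower in blood against bone marrow (2 without any 1 blood library and 5 without lung replicate 3 in the lung comparison, 1 to 2 in the blood comparison). Their median log2 fold change was 2.67 in lung against blood and -1.50 in blood against bone marrow, against 0.05 and -0.05 over all tested genes. Of all tested genes 13.2% were higher and 15.7% lower in lung against blood, and 8.34% and 13.1% in blood against bone marrow. Mmp2, the gelatinase activated by Mmp14, had 51.1, 34.3 and 2.33 CPM in lung and averaged 0.125 CPM in blood, with a log2 fold change of 7.86 ± 1.73 (edgeR adjusted p = 0.0105). Its lung replicate 3 value was the lowest, as for Mmp14. Of 25 other ADAM genes 14 were tested, with 1 higher and 1 lower in blood against bone marrow and 2 higher and 1 lower in lung against bone marrow, at medians of 0.20 and -0.10 against -0.05 and 0.06 over all tested genes. Of all tested genes 8.34% were higher and 13.1% lower in the blood comparison, and 15.6% and 22.6% in the lung comparison. The ADAM counts did not exceed those shares. Leaving out 1 library gave 0 to 2 higher and 0 to 1 lower in the blood comparison and 1 to 4 higher and 1 to 2 lower in the lung comparison, where the replicate block gave 1 higher and 2 lower. The lower one was Adam15, whose product is a membrane proteinase, at 70.7 ± 10.6 CPM in lung, 85.6 ± 9.28 CPM in blood and 201 ± 35.9 CPM in bone marrow. Its log2 fold change was -1.51 in lung against bone marrow (edgeR adjusted p = 0.000320) and -1.23 in blood against bone marrow (adjusted p = 0.00188), the last lost without blood replicate 2.

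Of 13 sheddase partners and proprotein convertases 11 were tested, and 4 were lower and 0 higher in lung against bone marrow (3 to 4 lower when 1 library was left out, and 3 higher without lung replicate 3), at a median log2 fold change of -0.72 against 0.06 over all tested genes. In that comparison 22.6% of all tested genes were lower and 15.6% higher. Frmd8, which keeps the Adam17 partner iRhom stable, averaged 46.3 ± 10.9 CPM in lung, 140.4 ± 16.5 CPM in blood and 121 ± 16.7 CPM in bone marrow. Its log2 fold change was -1.60 ± 0.20 in lung against blood (edgeR adjusted p = 0.000902) and -1.39 ± 0.20 in lung against bone marrow (adjusted p = 0.000813). Tspan14, a tetraspanin that carries Adam10 to the surface, averaged 29.3 ± 10.4 CPM in lung and 115 ± 12.3 CPM in blood (log2 fold change -1.97 ± 0.36, edgeR adjusted p = 0.00486). Adam10 was also lower in lung than in blood. In bone marrow Tspan14 had 52.7, 128 and 61.3 CPM, with a mean of 80.5 CPM below that of blood. For Adam10 the mean in CPM was higher in bone marrow than in blood.

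Of 15 gelatinase partners and serine proteinases 12 were tested, 0 higher and 7 lower in blood against bone marrow (3 to 7 lower when 1 library was left out, 3 without blood replicate 2 or 3), at a median log2 fold change of -2.097 against -0.05 over all tested genes. Of all tested genes 8.34% were higher and 13.1% lower there, and 13.2% and 15.7% in lung against blood, the comparison used below. Lcn2, the lipocalin known to bind gelatinase B, averaged 621 ± 86.4 CPM in blood and 6459 ± 1407 CPM in bone marrow (log2 fold change -3.38 ± 0.31, edgeR adjusted p = 0.000143). In lung against blood 5 were higher and 0 lower (4 to 7 higher when 1 library was left out) at a median of 1.12 against 0.05, among them Plaur, the urokinase receptor, at 1919 ± 728 CPM in lung and 505 ± 226 CPM in blood (log2 fold change 1.93 ± 0.38, edgeR adjusted p = 0.00653). Of 30 leukocyte sheddase substrates 29 were tested, 10 higher and 2 lower in lung against blood (9 to 11 higher when 1 library was left out, 9 lower without lung replicate 3, 0 lower without blood replicate 1 or 3, and 4 lower with the replicate number as a block). Their median log2 fold change was 0.65, against 0.05 over all tested genes. Icam1, an adhesion molecule shed by ADAM proteinases, had 325, 475 and 688 CPM in lung, against 44.7, 33.9 and 37.0 CPM in blood and 14.9, 9.47 and 8.92 CPM in bone marrow. The 3 tissues did not overlap, lung replicate 3 was the highest lung library, and Icam1 was higher in lung than in blood (log2 fold change 3.69 ± 0.33, edgeR adjusted p = 0.000242). Axl and Mertk, which also rose, were instead lowest in that library among the lung libraries. Axl, a receptor tyrosine kinase of phagocytes, had 119.9, 75.2 and 9.19 CPM in lung and averaged 2.53 CPM in blood (log2 fold change 4.74 ± 1.13, edgeR adjusted p = 0.0142). Mertk, a related receptor of macrophages and 1 of the 13 macrophage markers, had 17.7, 28.2 and 1.86 CPM in lung and averaged 0.0667 CPM in blood (log2 fold change 7.76 ± 1.58, edgeR adjusted p = 0.00763). Both followed the order of the fibroblast and macrophage marker sums in placing lung replicate 3 last, and the part of those cells was not tested.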

How the data were processed

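RNA-seq libraries of sorted mouse neutrophils were analysed from the deposited tables. Per the file headers, the authors' series table gives a whole-number read count and an FPKM value for each of 36780 RefSeq transcripts in all 9 libraries. Its name calls the counts normalized, but the values were whole numbers that differed in total between libraries and were treated as raw counts. FPKM was the count divided by length and by a constant per library. The authors' deposited RSEM files give expected counts and TPM for 55450 genes in lung and blood; expected counts were rounded. The bone marrow files repeat the series table and were not used again. Per the submitters' processing notes, Bowtie2, STAR, StringTie 2.1.3b, RSEM, DESeq2 and mm10 were used, with no roles given. Per the labels' protocols, poly(A) RNA libraries were made with TruSeq kits, 1 of which is stranded; whether counting used strand is not given in the sources used here, so overlapping antisense reads cannot be told apart. There were 0 value columns without a mapped sample.

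Counts were summed by gene. The main fit was edgeR 4.0.16's quasi-likelihood test in R 4.3.3 with TMM scaling, filterByExpr, robust dispersion and 1 mean per tissue over all 9 libraries. It was two-sided, with Benjamini-Hochberg adjustment over 13510 genes and a threshold of 0.05. The standard error of a log2 fold change was taken as its size over the root of the F statistic. The script was tested on simulated data. limma 3.58.1 and DESeq2 1.42.0 gave alternatives. All 10 members are named; from each list, genes that passed with at least 5 CPM in the higher tissue, up to 4 per comparison by size of change, were eligible. The members and lists were chosen with earlier results of these data known. Replicate numbers run from 1 to 3 in each tissue, and the labels do not tie them to animals or days. Deviations from the tissue means correlated between same-numbered libraries at 0.13 to 0.52 for the 3 pairs of lung and blood, 0.15 to 0.19 for lung and bone marrow and 0.05 to 0.38 for blood and bone marrow. All same-numbered pairs with lung were over 0.1 and the lowest pair of blood and bone marrow was not. Blocked values therefore stand beside lung results whose call they change. Of 18 pairs with unlike numbers 4 were also over 0.1. Lung replicate 1 correlated at 0.453 with blood replicate 2, against 0.127 with blood replicate 1.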

Additional observations from a re-analysis of the deposited data

How the results depend on the processing

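No called member changed direction. Uncalled values did: Adam10 in blood against bone marrow was -0.29 by edgeR and 0.07 with limma on either log2(FPKM) scale, and Adam17 in lung against blood was 0.03 and ran from -0.36 (without lung replicate 3) to -0.01 in 6 alternatives. Adam17 in lung against bone marrow was 0.18, and -0.22 without lung replicate 3. Of 19 called gene and comparison pairs, 14 held in all 9 fits that left out 1 library and 10 in every alternative; 6 of 11 uncalled pairs passed somewhere. With 6 libraries, 1 member was higher in blood against bone marrow (Adam17, edgeR adjusted p = 0.0434), against 0 in the 9-library fit. Over all tested genes 2164 were higher there, against 1127 in the 9-library fit. Leaving out 1 library gave 3 to 6 members lower in blood against bone marrow and 1 to 5 lower in lung against blood. Over all tested genes those fits gave 645 to 2376 and 966 to 2953 lower. Members lower in lung against blood numbered 5, not 2, with limma on log2(FPKM + 1) or log2(FPKM + 0.1), the additions being Mmp8, Mmp9 and Mmp25. Over all tested genes 2919 and 2863 were lower there, against 2120 in the main fit. Limma-voom called 1 member higher in lung against blood, not 3, and 0 higher in lung against bone marrow, not 2. Over all tested genes it called 1229 and 1533 higher, against 1780 and 2108 in the main fit. The causes were not tested. Timp2 passed in lung against blood by DESeq2 (adjusted p = 0.00908), with DESeq2 size factors in edgeR (0.0487), with upper-quartile scaling (0.0305) and with a 1 CPM filter (0.0469). Without a filter on low counts Mmp9 in blood against bone marrow (edgeR adjusted p = 0.0778), Adam19 there (0.210) and Adam8 in lung against blood (0.0524) were lost. Adam8 in lung against blood was also lost with 6 libraries (0.0582). Adam19 in blood against bone marrow was also lost with DESeq2 size factors (0.116), the 1 CPM filter (0.104) and limma on log2(FPKM + 1) (0.0651) or log2(FPKM + 0.1) (0.0676).

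Scaling moved the median of all tested genes, by 0.15, 0.16 and 0.32 on the log2 scale with upper-quartile scaling in blood against bone marrow, lung against blood and lung against bone marrow, and the share of calls that were higher from 39.0, 45.6 and 40.9% to 52.6, 55.9 and 59.3%. With DESeq2 size factors these shares were 43.1, 56.9 and 52.0%. No called member changed direction under either.

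With the replicate number as a block in edgeR, 5 members were lower in lung against blood, Mmp8 (adjusted p = 0.0293), Mmp9 (0.00844) and Mmp25 (0.0152) among them. Over all tested genes 2678 were lower there with the block, against 2120 in the main fit. Other counts of members stayed within 1.5 times. All 3 same-numbered pairs of lung and blood and of lung and bone marrow correlated above 0.1, and 1 of blood and bone marrow did not (8 of 9 pairs over 0.1). Among 18 pairs with unlike numbers 4 were over 0.1, the highest at 0.453. In 13 of 18 cases a library matched its own number best. The pairing is read from the data, not from the labels, and these correlations and the blocked fit were computed together.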
